A study of Homo sapiens with 5 samples.

Results

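The genes described here are 42 genes of DNA damage signalling and repair, chosen by symbol and matched by their GENCODE 29 names to the Ensembl identifiers in the count tables. All 42 were among the 31029 genes listed for both cell lines. RNA-seq libraries came from 501Mel cells, a human melanoma line, with 2 replicates (501Mel shBPTF), and from Hermes 3A cells, an immortalized human melanocyte line, with 3 replicates (Hermes 3A shBPTF). All 5 libraries were made after infection with a lentivirus expressing an shRNA against BPTF, the largest subunit of the NURF chromatin remodelling complex, followed by puromycin selection. 501Mel cells were grown in RPMI with foetal calf serum, whereas the Hermes 3A medium also held TPA, cholera toxin, stem cell factor and endothelin-1, so that line, medium and any difference in knockdown cannot be told apart. The labels do not give which shBPTF construct was used, and control shRNA libraries were not analysed here. The comparison below is therefore between the lines after knockdown, not the response to knockdown. Nothing in the labels says that replicates were separate cultures, and p-values then measure only the spread between these libraries.

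Total counts per library were 30073071 to 43032311, at which 3 counts on a gene correspond to 0.0697 to 0.0998 CPM, counting error only. CPM is the count on a gene after libraries are brought to equal size, here with TMM factors. BPTF had 2832 and 2189 counts in 501Mel cells and 1906, 2110 and 1628 counts in Hermes 3A cells, which cannot check the knockdown without controls, and it did not pass the test between the lines (log2 fold change 0.23, edgeR adjusted p = 0.208). All 7 melanocyte markers were detected in both lines, with summed levels of 12314 and 19421 CPM in 501Mel cells and 31778 to 34864 CPM in Hermes 3A cells, although DCT stood at 7.85 to 13.3 CPM in Hermes 3A cells. Of 6 keratinocyte markers 3 were listed for both lines, with KRT10 at 31.6 and 33.7 CPM in 501Mel cells and 42.5 to 50.5 CPM in Hermes 3A cells, and DSG3 and TP63 at 0.614 CPM or less in every library, and both tested, KRT10 and TP63, were called lower in 501Mel cells. Of 6 fibroblast markers 5 were tested, with a median log2 fold change of 0.94, and only COL1A2 was called. COL1A2 had 3 and 4 counts in 501Mel cells and 74.0 to 190 CPM in Hermes 3A cells, whereas the other 5 were at 8.08 CPM or less in every library. The summed fibroblast level was 18.3 and 4.25 CPM in 501Mel cells and 83.4 to 193 CPM in Hermes 3A cells, and the part of these markers in the results was not tested. Hermes 3A replicate 1 stood apart from replicates 2 and 3 on the second principal component, which held 6.83% of the variance.

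Cells answer broken or stalled DNA through the kinases ATM and ATR, which act on the checkpoint kinases CHEK2 and CHEK1. Broken ends are either joined directly by Ku and ligase IV, or resected and repaired by homologous recombination, in which BRCA1, BRCA2 and their partners help a resected strand to pair with an intact copy. The Fanconi anaemia proteins deal with crosslinks between the strands, and mismatch repair corrects replication errors. Recombination is known to be used mainly in S and G2 phases, and many of its genes are known E2F targets transcribed as cells enter S phase, whereas end joining works throughout the cycle.

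Promoter sequences are shown for the members whose window held an E2F motif, since E2F factors are known regulators of genes transcribed at the entry into S phase. Windows of 250 bases before to 50 bases after the transcription start were available from RefSeq (GRCh38.p14) for 38 of the 42 genes, with no entry for FANCI, NBN, RAD54B and XRCC5. Searched on both strands with TTTCGCGC, TTTGGCGC, TTTCCCGC and TTTGCCGC, 7 of the 38 windows held a match (18.4%), against 6.25% of the 11575 tested genes with a window and 3.31% of all 35116 windows. Each is given 5′ to 3′ on the gene's strand with 10 bases on either side, or up to the end of the window, and with the match in capitals. Matches on the opposite strand read as GCGGGAAA, GCGCGAAA, GCGGCAAA or GCGCCAAA.
EXO1, chr1:241848198-241848225, plus strand: aaggtcagccTTTCGCGCgctgtgtagg
XRCC2, chr7:152676103-152676130, minus strand: ggcgttggtgGCGGGAAAgttgagtctc
FANCA, chr16:89816802-89816829, minus strand: ctacaccgcgGCGGCAAAgccaaacgca
FANCD2, chr3:10026425-10026452, plus strand: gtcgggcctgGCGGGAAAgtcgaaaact
MSH6, chr2:47783138-47783165, plus strand: tccccccagaTTTCCCGCcagcaggagc
XRCC6, chr22:41621327-41621344, plus strand: tcgcttccctGCGCCAAA
FANCC, chr9:95317738-95317765, minus strand: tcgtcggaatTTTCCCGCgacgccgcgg
FANCC, chr9:95317864-95317891, minus strand: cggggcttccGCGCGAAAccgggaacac

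The first matched base lay 5 bases after the start in EXO1, 4 after it in MSH6, 22 after it in XRCC2 and 43 after it in XRCC6. It lay 2 bases before the start in FANCD2, 172 before it in FANCA, and 46 and 172 before it in FANCC. By the expression values given next, 4 of 15 windows of genes at least 4-fold higher in 501Mel cells held a match, as did 3 of 13 of those higher by less and 0 of 10 of those lower or not called. The motifs were chosen after the expression values were seen, a match is not a binding site, and no factor's binding was measured. CCAAT was found in 17 of 38 windows (44.7%, against 42.97% of tested genes). The cell cycle element TTTGAA or TTCGAA was found in 5 (13.2%, against 16.01%), and the GC box GGGCGG in 30 (78.9%, against 74.7%). In the same order of classes, the GC box was found in 14 of 15, 11 of 13 and 5 of 10 windows. CCAAT was found in 8 of 15, 5 of 13 and 4 of 10, and the cell cycle element in 2 of 15, 2 of 13 and 1 of 10. The E2F motif was thus not the only one whose share was lowest in genes lower or not called.

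The data show that most of these genes stood at a higher level in 501Mel shBPTF than in Hermes 3A shBPTF cells, and that the size of the difference varied widely from gene to gene and between roles. All 42 passed the filter on low counts. Of these, 31 were called higher in 501Mel cells (73.8%), where 24.2% of all 17975 genes tested were, and 2 were called lower, ATM and RAD50 (4.76%, against 24% of all genes), where 48.2% of all genes were called in either direction. Calls were made with edgeR's quasi-likelihood test at a Benjamini-Hochberg adjusted p of 0.05 over all genes. At least 2-fold higher were 27 of the 42 (17.2% of all genes) and at least 4-fold higher 17 (9.77% of all genes), while ATM and RAD50 were lower by less than 2-fold. The median log2 fold change of the 42 genes was 1.27, with a range of -0.55 to 3.62, beside a median of 0.02 for all genes tested. In 34 of the 42, both 501Mel libraries lay above all 3 Hermes 3A libraries, as in 35.7% of all genes. In such bulk samples, more cells that express a gene and more of its RNA in each cell cannot be told apart.

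**Figure D1:**
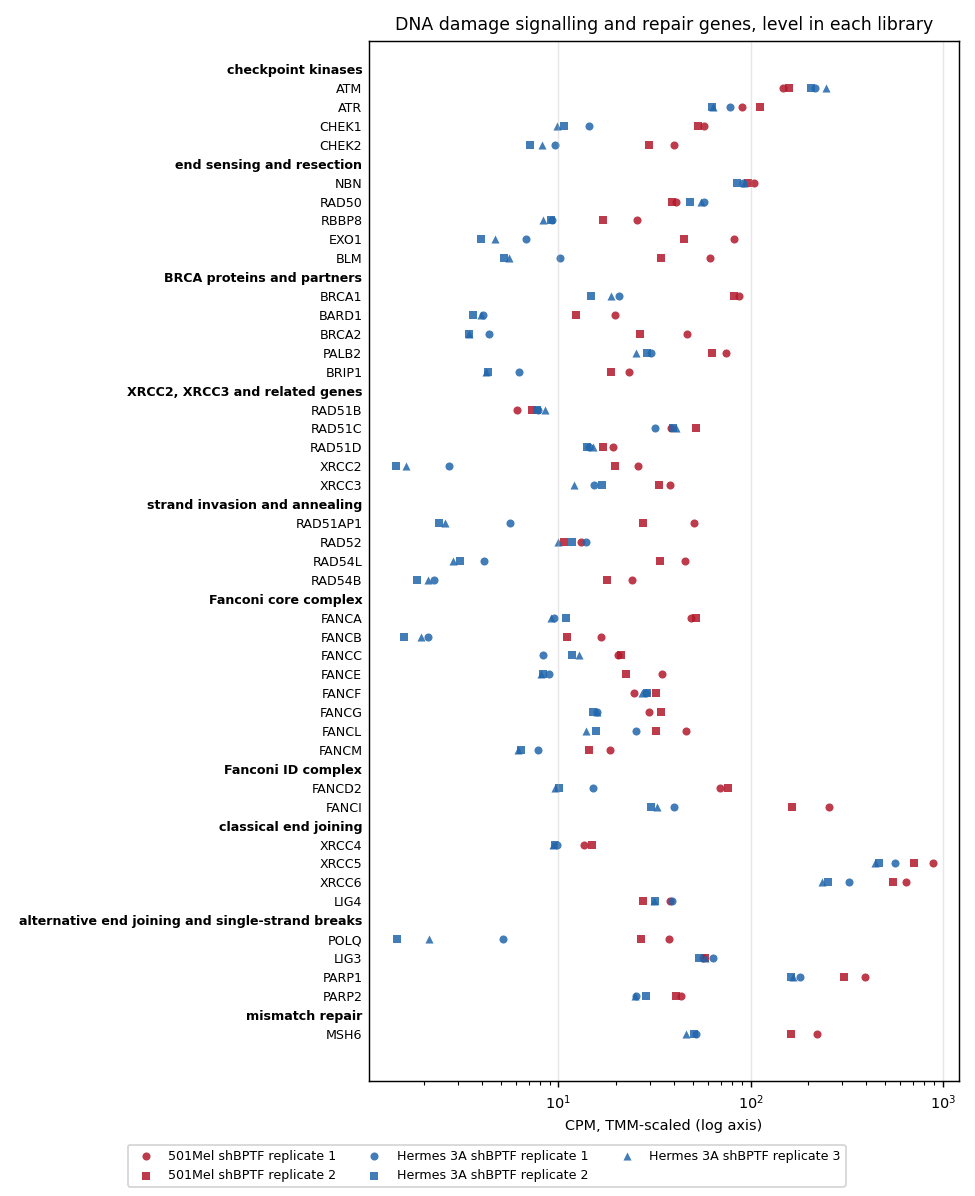
Level of each of the 42 genes in every library, grouped by role, in TMM-scaled CPM on a log axis. Red points are the 2 libraries of 501Mel shBPTF and blue points the 3 libraries of Hermes 3A shBPTF. The points of EXO1, BRCA2 and RAD54L lie far apart between the lines, those of RAD52, FANCF, LIG3 and LIG4 overlap, and those of ATM and RAD50 lie in the opposite order.

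Of the 4 checkpoint kinases, the effector kinases CHEK1 and CHEK2 were over 4-fold higher in 501Mel cells, and the sensor kinases ATR and ATM differed by less than 2-fold. CHEK1, the kinase that ATR activates at stalled forks (ENSG00000149554, GRCh38 chromosome 11, 125625136 to 125676255), had 57.1 and 53.05 CPM in 501Mel cells and 14.3, 10.8 and 9.89 CPM in Hermes 3A cells. CHEK2, the kinase that ATM activates at breaks, had 39.7 and 29.7 CPM against 9.56, 7.11 and 8.20 CPM. The groups did not overlap for either, with log2 fold changes of 2.24 (SE 0.204, edgeR adjusted p = 0.000235) and 2.07 (SE 0.224, edgeR adjusted p = 0.000467). ATR, the kinase recruited by single-stranded DNA, stood at 90.7 and 113 CPM against 78.5, 62.7 and 64.0 CPM, a log2 fold change of 0.57 (edgeR adjusted p = 0.0251). ATM, the kinase recruited by breaks (ENSG00000149311, chromosome 11, 108222484 to 108369102), was lower in 501Mel cells, with 148 and 158 CPM against 217, 207 and 247 CPM. No 501Mel library reached the lowest Hermes 3A library. Its log2 fold change was -0.55 (SE 0.144, edgeR adjusted p = 0.0172), a call that was lost without 501Mel replicate 1 (adjusted p = 0.0922) or 2 (0.0516), without Hermes 3A replicate 3 (0.0578) and with a replicate block (0.0763). ATM and CHEK2, which act in turn in the break-sensing branch of the checkpoint, were thus called in opposite directions. CHEK1 shares exon bases with its neighbour STT3A on the same strand and CHEK2 has 4 named pseudogenes, so that reads could be split there by the authors' counting.

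Among the genes that sense and resect broken ends, the resection genes EXO1, BLM and RBBP8 were called higher in 501Mel cells. RAD50 and NBN of the MRN complex, which binds the ends first, were not. EXO1, the exonuclease of long-range resection (ENSG00000174371, chromosome 1, 241847967 to 241895148), had the largest log2 fold change of the 42 genes. It had 82.0 and 44.8 CPM in 501Mel cells and 6.80, 3.98 and 4.66 CPM in Hermes 3A cells, a log2 fold change of 3.62 (SE 0.332, edgeR adjusted p = 0.000242). BLM, the helicase that works with the nucleases in resection and dissolves joint molecules, had 61.2 and 34.4 CPM against 10.2, 5.23 and 5.53 CPM (log2 fold change 2.77, SE 0.369, edgeR adjusted p = 0.0011). RBBP8, which encodes the CtIP protein that starts resection, had 25.5 and 17.0 CPM against 9.31, 9.16 and 8.34 CPM (log2 fold change 1.25, edgeR adjusted p = 0.00484). For all of these the lower 501Mel library lay above the highest Hermes 3A library, and 501Mel replicate 1 was above replicate 2. RAD50, the ATPase of the MRN complex, was lower in 501Mel cells, with 41.0 and 38.8 CPM against 57.3, 48.5 and 55.3 CPM. Its log2 fold change of -0.43 had an edgeR adjusted p of 0.047, just inside the threshold, and the call was lost under 10 of the 13 other settings, among them each replicate left out (0.0527 to 0.162). NBN, the MRN subunit that recruits ATM, had 104 and 97.2 CPM against 91.1, 85.1 and 92.7 CPM, a log2 fold change of 0.17 that did not pass the test (edgeR adjusted p = 0.305). MRE11, the nuclease of the complex and not among the 42 genes, had 32.0 and 31.2 CPM against 21.0, 22.9 and 24.3 CPM. It was called higher, also just inside the threshold (0.47, edgeR adjusted p = 0.045).

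BRCA1, BRCA2 and their partners were all higher in 501Mel cells, 5 of 5 genes with a median log2 fold change of 2.10. BRCA1, a ubiquitin ligase subunit that promotes resection (ENSG00000012048, chromosome 17, 43044295 to 43170245), had 87.4 and 81.8 CPM in 501Mel cells and 20.6, 14.8 and 18.8 CPM in Hermes 3A cells. BARD1, its obligate partner, had 19.6 and 12.3 CPM against 4.04, 3.62 and 3.95 CPM. BRCA1 differed by a log2 fold change of 2.23 (SE 0.177, edgeR adjusted p = 0.000141) and BARD1 by 2.04 (SE 0.283, edgeR adjusted p = 0.00127). BRCA2, a mediator of strand invasion (chromosome 13, 32315474 to 32400266), differed most of the 5, with 46.8 and 26.5 CPM against 4.37, 3.42 and 3.44 CPM (log2 fold change 3.29, SE 0.292, edgeR adjusted p = 0.000216). PALB2, which joins BRCA1 to BRCA2, differed least, with 74.8 and 63.2 CPM against 30.4, 28.9 and 25.4 CPM (log2 fold change 1.29, edgeR adjusted p = 0.000774). BRIP1, a helicase that binds BRCA1, had 23.4 and 18.7 CPM against 6.24, 4.29 and 4.22 CPM (log2 fold change 2.10, edgeR adjusted p = 0.000944). In Hermes 3A cells the BRCA2 libraries stood close together, whereas the 501Mel libraries were 46.8 and 26.5 CPM, so that the size of the BRCA2 difference depends on the 501Mel library.

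RAD51B, RAD51C, RAD51D, XRCC2 and XRCC3, related genes whose products act together in recombination, had values that ran from no call to one of the largest differences. XRCC2 (chromosome 7, 152644779 to 152676165) had 26.0 and 19.8 CPM in 501Mel cells and 2.69, 1.42 and 1.62 CPM in Hermes 3A cells, a log2 fold change of 3.58 (SE 0.340, edgeR adjusted p = 0.000279). XRCC3 had 38.1 and 33.3 CPM against 15.3, 16.9 and 12.1 CPM, a log2 fold change of 1.27 (SE 0.201, edgeR adjusted p = 0.00226). RAD51B, RAD51C and RAD51D did not pass the test. RAD51B had 6.08 and 7.28 CPM against 7.80, 7.71 and 8.47 CPM (log2 fold change -0.26, edgeR adjusted p = 0.432). RAD51C, which is found in complexes with XRCC2 and with XRCC3, had 38.6 and 51.8 CPM against 31.9, 39.5 and 40.8 CPM, with overlapping groups (0.27, edgeR adjusted p = 0.273). RAD51D, the direct partner of XRCC2, had 19.2 and 17.2 CPM against 14.4, 14.1 and 15.1 CPM (0.33, edgeR adjusted p = 0.187), and it shares exon bases with a readthrough gene on the same strand. XRCC2 was thus called and RAD51D, whose product acts in the same complex, was not, and the difference between their fold changes was not tested.

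Of the genes of strand invasion and annealing, 3 of 4 were at least 8-fold higher in 501Mel cells and the other, RAD52, did not pass the test. RAD54L, a translocase that drives strand invasion (chromosome 1, 46247688 to 46278473), had 45.5 and 33.6 CPM in 501Mel cells and 4.09, 3.06 and 2.83 CPM in Hermes 3A cells, with the smallest adjusted p of the 42 genes (log2 fold change 3.57, SE 0.253, edgeR adjusted p = 9.01e-05). Its relative RAD54B had 24.3 and 17.9 CPM against 2.25, 1.83 and 2.09 CPM (log2 fold change 3.35, SE 0.264, edgeR adjusted p = 0.000136). RAD51AP1, which stimulates the formation of joint molecules (chromosome 12, 4538798 to 4560048), had 50.7 and 27.4 CPM against 5.63, 2.39 and 2.56 CPM (log2 fold change 3.47, SE 0.443, edgeR adjusted p = 0.000929). All 3 were highest in replicate 1 of both lines. RAD52, which anneals single strands, had 13.2 and 10.7 CPM against 13.9, 11.7 and 9.99 CPM, a log2 fold change of 0.01 with an SE of 0.246 (edgeR adjusted p = 0.988), whose sign changed with the scaling.

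**Figure D2:**
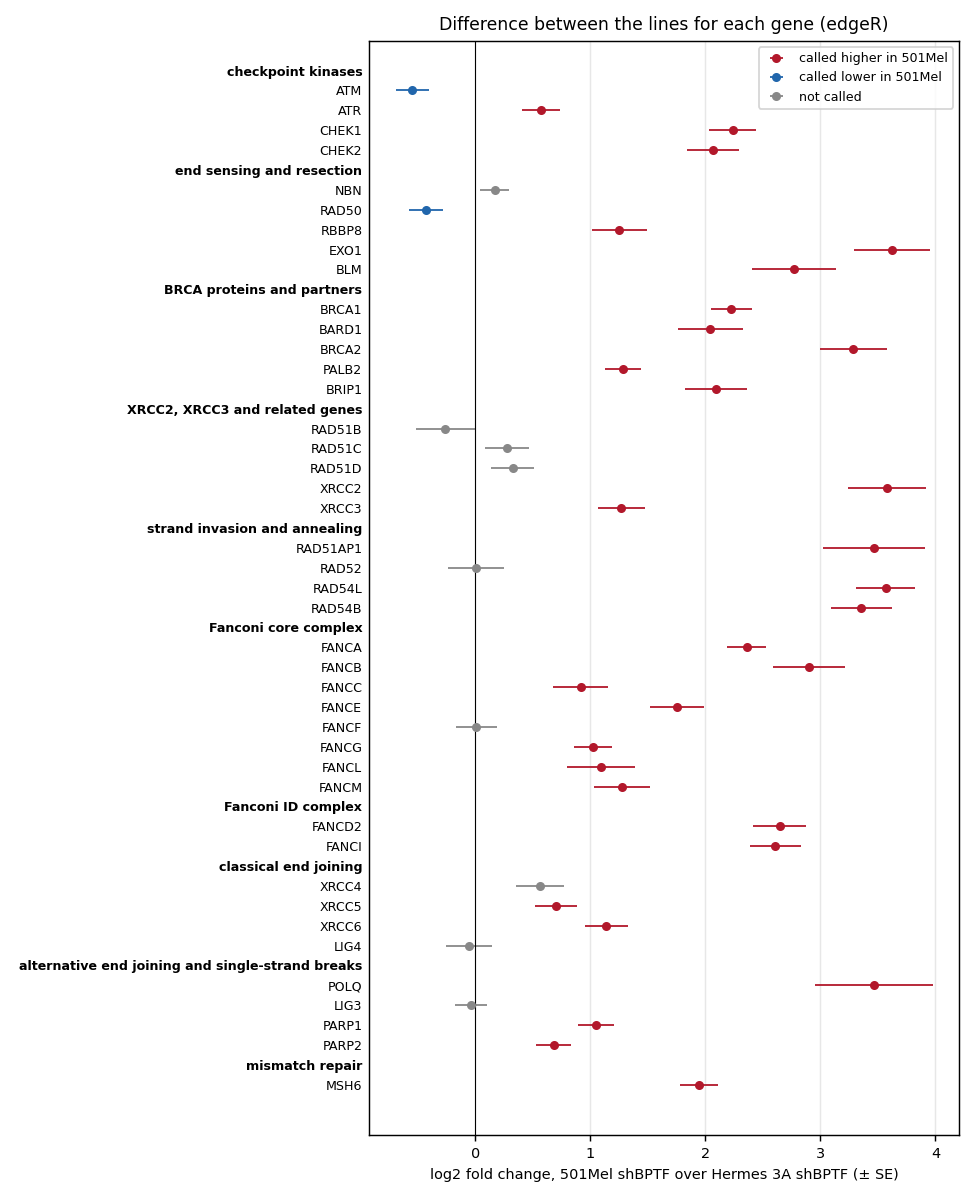
Log2 fold change of each of the 42 genes, 501Mel shBPTF over Hermes 3A shBPTF, from edgeR, with its SE as a bar, grouped by role. Red marks genes called higher in 501Mel cells (31), blue those called lower (2) and grey those not called (9), and values run from -0.55 for ATM to 3.62 for EXO1.

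Of the 8 genes of the Fanconi core complex among the 42, 7 were called higher in 501Mel cells, where 24.2% of all genes were. This complex is a ubiquitin ligase assembled at crosslinks, and the 8 genes had a median log2 fold change of 1.18. FAAP100 (-0.39) and FAAP20 (-0.29), core subunits outside the 42 genes, were not called, and the 12 other Fanconi genes are counted below. Both genes of the ID complex, whose proteins the core complex ubiquitinates, were also called higher. FANCD2 (ENSG00000144554, chromosome 3, 10026414 to 10101930) had 69.1 and 76.5 CPM in 501Mel cells and 15.2, 10.0 and 9.58 CPM in Hermes 3A cells, a log2 fold change of 2.65 (SE 0.232, edgeR adjusted p = 0.000201). FANCI, its partner in the ID complex, had 255 and 164 CPM against 40.0, 30.2 and 32.7 CPM, a log2 fold change of 2.61 (SE 0.221, edgeR adjusted p = 0.000178). The fold changes of the pair differed by less than their standard errors. In the core complex, FANCB, a subunit of the catalytic module, had 16.6 and 11.1 CPM against 2.10, 1.57 and 1.92 CPM (log2 fold change 2.90, edgeR adjusted p = 0.000456). FANCA, which forms a subcomplex with FANCG, had 49.1 and 51.8 CPM against 9.44, 10.9 and 9.11 CPM (log2 fold change 2.36, edgeR adjusted p = 9.88e-05). FANCE, which contacts FANCD2, had 34.7 and 22.6 CPM against 8.98, 8.34 and 8.17 CPM (log2 fold change 1.75, edgeR adjusted p = 0.00111). These 3 genes were the ones over 3-fold higher among the 8 core genes.

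The other core genes had smaller differences. FANCM, the translocase that anchors the complex on DNA, had 18.5 and 14.4 CPM in 501Mel cells and 7.83, 6.41 and 6.18 CPM in Hermes 3A cells (log2 fold change 1.27, edgeR adjusted p = 0.00484). FANCL, the catalytic ligase subunit, had 46.2 and 32.1 CPM against 25.3, 15.7 and 13.9 CPM (1.10, edgeR adjusted p = 0.0189). FANCG had 29.7 and 34.1 CPM against 15.9, 15.1 and 15.96 CPM (1.02, edgeR adjusted p = 0.00268), which placed FANCG 2.03-fold higher and its partner FANCA 5.13-fold higher. FANCC, which pairs with FANCE and FANCF, had 20.3 and 21.1 CPM against 8.34, 11.8 and 12.8 CPM (0.92, edgeR adjusted p = 0.0168). FANCF, an adaptor within the complex, had 24.7 and 32.1 CPM against 28.4, 28.9 and 27.3 CPM, with overlapping groups and a log2 fold change of 0.01 (SE 0.178, edgeR adjusted p = 0.972).

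The classical end joining genes had a median log2 fold change of 0.63, with the Ku genes called higher and the ligase complex not. XRCC5, the larger Ku subunit (ENSG00000079246, chromosome 2, 216107464 to 216206303), had 884 and 709 CPM in 501Mel cells and 563, 466 and 443 CPM in Hermes 3A cells, a log2 fold change of 0.70 (SE 0.182, edgeR adjusted p = 0.0166). XRCC6, the smaller Ku subunit, had 645 and 548 CPM against 326, 252 and 234 CPM, a log2 fold change of 1.14 (SE 0.187, edgeR adjusted p = 0.0026), and it has 5 named pseudogenes. XRCC4, the scaffold of the ligase, had 13.5 and 14.9 CPM against 9.85, 9.59 and 9.42 CPM. Its groups did not overlap, but the edgeR adjusted p was 0.0587 (log2 fold change 0.56). XRCC4 was called under 4 of the 13 other settings, among them limma voom (adjusted p = 0.0477) and DESeq2 (0.0162), while XRCC5 lost its call under 4. LIG4, the ligase itself, had 38.0 and 27.7 CPM against 38.8, 31.9 and 31.4 CPM, with overlapping groups (log2 fold change -0.05, edgeR adjusted p = 0.846).

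In alternative end joining and the repair of single-strand breaks, POLQ stood out from the other 3 genes. POLQ, the polymerase that joins ends by short homologies (ENSG00000051341, chromosome 3, 121431427 to 121546641), had 37.6 and 26.9 CPM in 501Mel cells and 5.17, 1.45 and 2.13 CPM in Hermes 3A cells, a log2 fold change of 3.46. With an SE of 0.510 it had the largest standard error of the 42 genes (edgeR adjusted p = 0.00167), and Hermes 3A replicate 1 was the high library. PARP1, the main sensor of strand breaks by ADP-ribosylation, had 395 and 308 CPM against 181, 162 and 167 CPM (log2 fold change 1.05, SE 0.157, edgeR adjusted p = 0.00179). PARP2, its relative, had 43.7 and 40.9 CPM against 25.3, 28.7 and 25.1 CPM (0.68, edgeR adjusted p = 0.00963). LIG3, the ligase of this route, had 56.4 and 58.0 CPM against 63.7, 54.0 and 58.2 CPM (-0.04, edgeR adjusted p = 0.847). Neither ligase among the 42 genes was called, whereas LIG1, a ligase gene outside them, was called higher (log2 fold change 1.00, edgeR adjusted p = 0.0011). MSH6, which recognizes mismatches (ENSG00000116062, chromosome 2, 47695530 to 47810101), had 220 and 162 CPM against 52.1, 50.8 and 46.2 CPM, a log2 fold change of 1.94 (SE 0.166, edgeR adjusted p = 0.000184).

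Ordered by size, 7 genes were at least 8-fold higher in 501Mel cells, namely EXO1, XRCC2, RAD54L, RAD51AP1, POLQ, RAD54B and BRCA2. All of these but POLQ act in resection or in the strand invasion steps of recombination. Another 10 were 4- to 8-fold higher, CHEK1, CHEK2, BLM, BRCA1, BARD1, BRIP1, FANCA, FANCB, FANCD2 and FANCI. A further 10 were 2- to 4-fold higher, RBBP8, PALB2, XRCC3, FANCE, FANCG, FANCL, FANCM, XRCC6, PARP1 and MSH6, and 4 were higher by less than 2-fold, ATR, FANCC, XRCC5 and PARP2. The 7 most different genes had Hermes 3A means between 1.91 and 5.15 CPM, so that their fold changes rest on low levels in that line, all above the floor of 3 counts. The summed level of the 42 genes was 4060 and 3362 CPM in 501Mel cells and 2085, 1788 and 1801 CPM in Hermes 3A cells.

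Levels were compared between genes per length, as CPM per kb of all annotated exon bases of the gene. In 501Mel cells the highest level was that of XRCC6 at 181 ± 20.8 CPM per kb (SD, n = 2), followed by XRCC5 at 146 ± 22.7, whose libraries did not overlap with those of XRCC6. PARP1 came next at 49.0 ± 8.65 and FANCI at 26.9 ± 8.28 (SD, n = 2). The lowest was RAD51B at 0.893 CPM per kb, a range of 203-fold around a median of 7.47. In Hermes 3A cells XRCC5 at 89.8 ± 11.7 and XRCC6 at 82.3 ± 14.8 CPM per kb (SD, n = 3) overlapped, PARP1 stood at 23.7 ± 1.41 and NBN at 14.6 ± 0.645. BRCA2 was the lowest there, at 0.305 CPM per kb, with a range of 294-fold and a median of 1.97. By this length the Ku genes and PARP1 stood above the others in both lines, while FANCI ranked 4 in 501Mel cells but 16 in Hermes 3A cells. The libraries were normalized with duplex-specific nuclease, which lowers abundant transcripts, so that levels between genes need not follow abundance in the cells. The order also depends on the length used. With the median transcript length of the annotation XRCC5 was highest in both lines, at 1306 and 805 CPM per kb, and in Hermes 3A cells ATM (353), PARP1 (303) and NBN (151) came before XRCC6 (130).

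Members of one complex were also compared as the log2 ratio of their CPM within each library, which no scaling of the library can change. XRCC5 to XRCC6 was 0.46 and 0.37 in 501Mel cells, against 0.79, 0.89 and 0.92 in the other line, a difference in the log2 ratio of -0.45 without overlap. NBN to RAD50 was 1.35 and 1.32 against 0.67, 0.81 and 0.74, a difference of 0.59 without overlap. XRCC4 to LIG4 was -1.49 and -0.89 against -1.98, -1.73 and -1.74, a difference of 0.63 without overlap. For XRCC4 to LIG4 the 501Mel libraries, at -1.49 and -0.89, lay further apart than -1.49 did from the nearest Hermes 3A library, at -1.73. Groups without overlap are common in this design. Of all single genes tested, 35.7% did not overlap with 501Mel higher and 34% with 501Mel lower. The share among ratios of other gene pairs was not counted. BRCA1 to BARD1 was 2.16 and 2.73 against 2.35, 2.04 and 2.25, and FANCD2 to FANCI was -1.88 and -1.10 against -1.39, -1.59 and -1.77, both with overlapping groups. With 2 against 3 libraries an exact permutation test cannot go below p = 0.1, so that no test of a single ratio was run.

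Other genes of the same and of other repair pathways were taken from lists of the pathway, to be read against the 24.2% of all genes called higher and the 24% called lower, and the pathways were not tested against each other. Of 26 other recombination genes tested, 17 were called higher in 501Mel cells (65.4%) and 1 lower, with a median log2 fold change of 1.10, and of 27 other checkpoint and break signalling genes 16 were called higher (59.3%, median 0.79). CLSPN, the adaptor through which ATR activates CHEK1, differed by a log2 fold change of 3.403, RMI2 of the BLM complex by 3.68 and the nuclease subunit gene EME1 by 3.24. Of 12 other Fanconi genes 5 were higher and 2 lower (median 0.15), among them USP1, which deubiquitinates the ID complex (2.75), and UBE2T, which supplies its ubiquitin (2.13), on the higher side and FAAP24, which binds FANCM, on the lower side (-1.25, edgeR adjusted p = 0.0102). Of 12 other end joining genes 3 were higher (25%, median 0.25), a share near that of all genes. The Ku-bound kinase gene PRKDC had 685 and 577 CPM against 349, 306 and 357 CPM, a log2 fold change of 0.90, between those of XRCC5 and XRCC6.

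In mismatch repair MLH3, of the later MutL step, went the other way from MSH6, with 2.14 and 2.45 CPM in 501Mel cells against 27.7, 20.1 and 17.99 CPM (-3.26, edgeR adjusted p = 0.000233), and 3 of the 6 other mismatch repair genes were higher and 1 lower. Base excision and single-strand break repair had 8 of 18 genes higher and 1 lower (median 0.24), translesion synthesis and direct reversal 5 and 5 of 14 (-0.00), and nucleotide excision repair 3 higher (14.3%) and 5 lower (23.8%) of 21 (-0.14), the last share near that of all genes. DDB2, the damage sensor of nucleotide excision repair, was the lowest of these in 501Mel cells relative to Hermes 3A cells among genes with counts in every library, at 6.66 and 6.58 CPM against 71.9, 100 and 85.9 CPM (-3.70, edgeR adjusted p = 3.88e-05). POLI, a translesion polymerase gene, had 0 and 5 counts in 501Mel cells and 764, 1096 and 570 counts in Hermes 3A cells. Over all 133 other repair genes tested, 58 were higher (43.6%) and 15 lower (11.3%), with a median of 0.35. The 42 genes thus had a larger share called higher than the other repair genes, by counts that were not tested against each other. Both the 42 genes and the lists were chosen with earlier results of these data known.

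**Figure D3:**
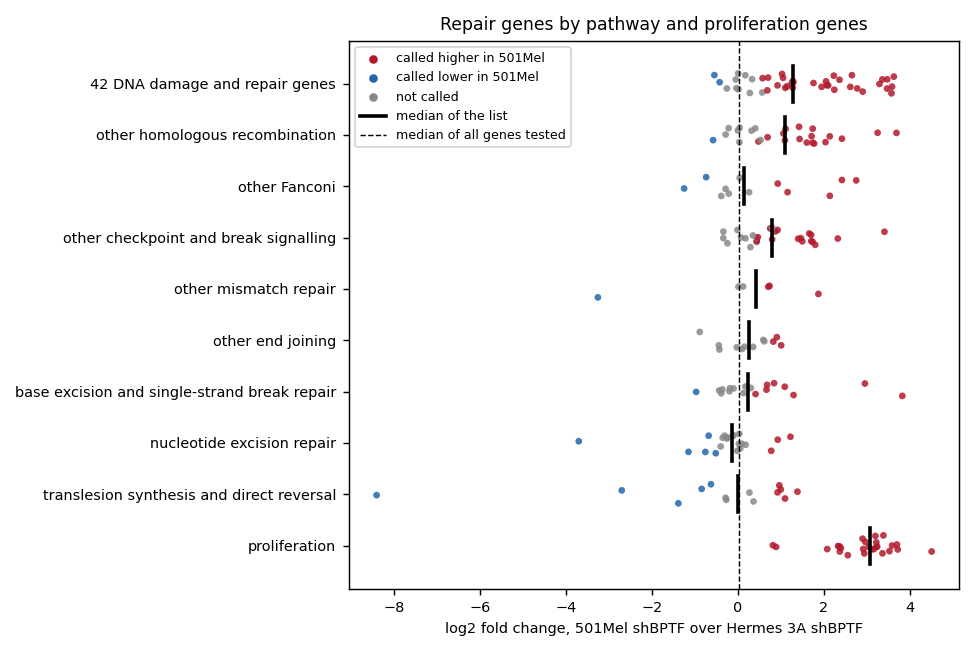
Log2 fold change, 501Mel shBPTF over Hermes 3A shBPTF, for the 42 genes, the other repair genes by pathway and proliferation genes, each point a gene coloured by its call in edgeR. The black bar is the list's median and the dashed line the median of all genes tested (0.02). Medians fall from 3.07 for proliferation through 1.27 for the 42 genes to -0.14 for nucleotide excision repair.

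Cell cycle genes differed between the same libraries. All 26 proliferation genes tested were called higher in 501Mel cells, with a median log2 fold change of 3.07, and their summed level was 4431 and 3612 CPM in 501Mel cells and 869, 538 and 658 CPM in Hermes 3A cells. MKI67, which marks cycling cells, had 317 and 214 CPM against 36.5, 5.83 and 24.4 CPM (log2 fold change 3.58, edgeR adjusted p = 0.0036). The part of these differences in those of the 42 repair genes was not tested.

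The 42 genes also varied within a line. In 501Mel cells replicate 1 was above replicate 2 in 15 of the 17 genes called at least 4-fold higher, with a median log2 ratio of 0.44, in 11 of the 14 called higher by less (0.28) and in 5 of the 11 lower or not called (-0.04). In Hermes 3A cells replicate 1 was above the mean of replicates 2 and 3 in 16 of 17 (0.47), 12 of 14 (0.13) and 7 of 11 (0.03). The median of this ratio was thus largest, in both lines, for the genes that were at least 4-fold apart between the lines. Proliferation genes varied in the same libraries, replicate 1 being higher in 23 of 26 genes in 501Mel cells (0.30) and in 23 of 26 in Hermes 3A cells (1.17), where all genes tested had medians of 0.01 and -0.00. The classes were set from the same libraries, so these values are a description. Without Hermes 3A replicate 1, 31 of the 42 genes were called higher and 1 lower.

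**Figure D4:**
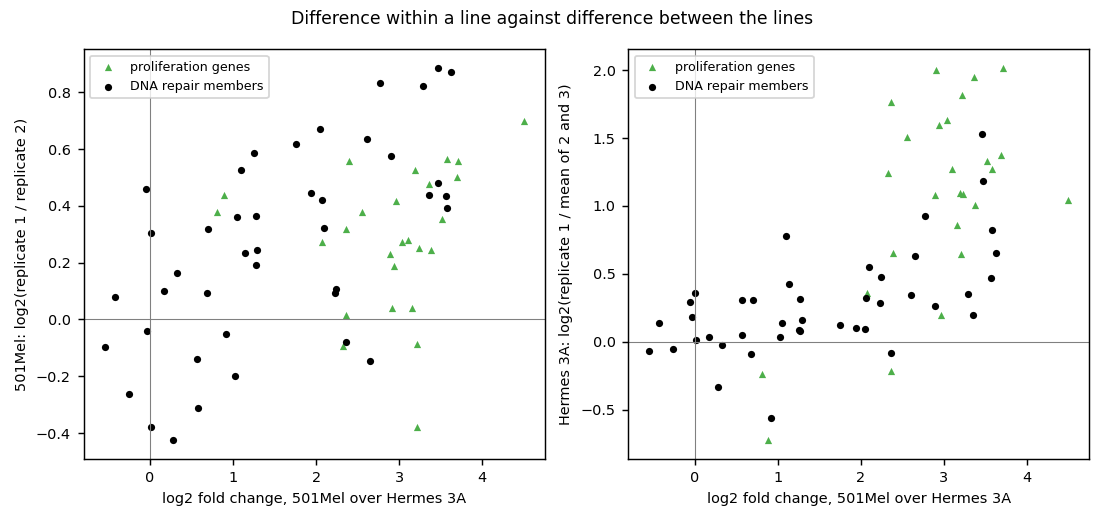
Log2 ratio of replicate 1 to replicate 2 in 501Mel cells (left) and of replicate 1 to the mean of replicates 2 and 3 in Hermes 3A cells (right), against the log2 fold change between the lines, for the 42 repair genes (black circles) and 26 proliferation genes (green triangles). Most repair genes at least 4-fold higher in 501Mel cells lie above 0 on both vertical axes (15 and 16 of 17), and both axes use the same libraries.

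Of the 31 genes called higher, 26 were called under all 13 other settings tried, and ATR, FANCC, FANCL, XRCC5 and PARP2 lost the call under 1 or more. Without 501Mel replicate 1 the lost calls were FANCC (edgeR adjusted p = 0.061), FANCL (0.13), XRCC5 (0.105) and PARP2 (0.0555), and without 501Mel replicate 2 they were ATR (0.172) and FANCC (0.0699). Without Hermes 3A replicate 2 the lost calls were ATR (0.127), FANCC (0.0506), FANCL (0.0704) and XRCC5 (0.0821), and without replicate 3 ATR (0.121), FANCL (0.0688) and XRCC5 (0.099). With a replicate block ATR (0.078) and XRCC5 (0.0528) were lost. Without strand information in the sources used here, reads of the 18 genes that share exon bases with a gene on the other strand, among them ATM, BRCA1 and FANCD2, cannot be told apart from those of the partner. Exon bases are shared on the same strand by 7 genes, CHEK1, RAD50, RBBP8, BRCA1, RAD51D, RAD52 and RAD54B. Named pseudogenes exist for 6, CHEK2, RBBP8, RAD51AP1, FANCD2, XRCC6 and PARP1. How the authors' counting treated such reads is not known.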

How the data were processed

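Total RNA was depleted of ribosomal RNA and the libraries normalized with duplex-specific nuclease, which lowers abundant transcripts, before sequencing on HiSeq2500. The authors deposited whole-number read counts per gene for each library, with genes named by Ensembl identifier and no normalization. The submitters' processing notes name CASAVA 1.8, TopHat 1.4.1, Bowtie 0.12.7 and build hg19. The counting program, annotation release and strand setting are not given in the sources used here. Gene names and coordinates given here are those of GENCODE 29 on GRCh38.

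Samples were grouped by cell line from their labels. Count tables hold 37259 genes for 501Mel and 34033 genes for Hermes 3A, and the 31029 listed in both, which held 99.3% to 99.9% of the counts, were analysed. No libraries agreed within sampling noise (chi-square per gene between replicates at least 21.5). edgeR 4.0.16 in R 4.3.3 was used with TMM, filterByExpr and the quasi-likelihood test over 17975 genes, adjusted by Benjamini-Hochberg, and was tested on simulated data. Alternatives were DESeq2 1.42.0 size factors and test, limma 3.58.1 voom, library totals, no filter or at least 10 counts in every library, each replicate left out, a replicate block and, added after seeing the data, genes listed for 1 line counted as 0 in the other. Values in every library were given for genes called at least 2-fold and for 1 or more others of each role, and up to 4 called genes with the largest change were eligible for naming from each other list. The 42 genes, the lists and this rule were chosen with earlier results of these data known. The floor was set at 3 counts. Some genes and 1 gene list are not reported here.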

Additional observations from a re-analysis of the deposited data

How the results depend on the processing

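Across the 13 other settings 27 to 32 of the 42 genes were called higher in 501Mel cells (31 as reported), and none of the 31 changed direction. The number called lower, 2 as reported, was 1 with DESeq2 size factors, with library totals, with no filter and with at least 10 counts in every library, 0 with the replicate block, and 0 to 1 when a replicate was left out. Of all genes, 2864 to 4595 were called higher with a replicate left out (4354 as reported), the lowest without 501Mel replicate 1. Without 501Mel replicate 2, 9 of the other repair genes were called lower (15 as reported). With the median transcript length, levels rose and changed order, in 501Mel cells from 146 to 1306 CPM per kb for XRCC5, from 49.0 to 626 for PARP1 and from 6.37 to 241 for ATM (rank 24 to 5), while XRCC6 stood at 287 CPM per kb in 501Mel cells and at 130 CPM per kb in the other line (181 and 82.3 as reported), that length being shorter than all exon bases together. Log2 fold changes near 0 changed sign. RAD52 was -0.012 with DESeq2 size factors and in the DESeq2 test, -0.032 with no filter, -0.11 with the replicate block and -0.16 to 0.14 with a replicate left out. FANCF was -0.0059 with DESeq2 size factors, -0.0062 in the DESeq2 test, -0.012 in voom, -0.029 with no filter, -0.025 with the block, and -0.21 to 0.18 with a replicate left out. LIG4 was 0.023 with library totals and -0.30 to 0.14 with a replicate left out, and LIG3 was 0.036 and -0.14 to 0.0076. Library totals moved the median of all genes from 0.02 to 0.09.

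Replicate numbers were shared between the lines, but the deviations of same-numbered libraries correlated weakly (r = 0.10 for replicates 1 and 0.12 for replicates 2), and nothing in the labels pairs them. With the replicate block, which could use these numbers, 29 of the 42 genes were called higher and 0 lower, and 3627 and 3834 of all genes. The calls of ATM, ATR, RAD50 and XRCC5 were lost there. With 2 and 3 replicates, XRCC4 (log2 fold change 0.56, SE 0.208) was not called, whereas ATR, with a similar difference (0.57, SE 0.166), was. The cause of the lost calls was not tested.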
